A study of Mus musculus with 35 samples.

Results

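Transcripts of 7 genes that handle ketone bodies and monocarboxylates were followed in interscapular brown adipose tissue (iBAT) of mice across a 5 day course of cold exposure. The 7 genes are Bdh1, Oxct1 and Acat1, which encode the enzymes of ketone body oxidation, and Slc16a1, Slc16a3, Slc16a6 and Slc16a7, which encode monocarboxylate transporters (MCTs). They are 7 of the 55421 genes in the count table. The group was chosen by the read counts of Bdh1 and Slc16a7 over the cold course, in which the former appeared and the latter fell, so the levels of those genes are given as a description, without a test. The other 5 were taken for their role beside them, but with earlier results of these data known, so their p-values are not those of genes fixed beforehand.

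The 35 libraries came from male C57BL/6J mice aged 9 to 10 weeks, all fed standard chow, with 5 mice in each of 7 groups. Controls stayed at the colony temperature of 24 °C, called room temperature in the labels, and cold mice were held at 6 °C for 6 hours or for 1, 2, 3, 4 or 5 days. Cold mice were also housed individually without nesting material in static cages, a housing not stated for the controls, so that housing and temperature cannot be told apart. Each library was made from the RNA of 1 iBAT pad of 1 mouse by 3′ end sequencing, which yields about one read per transcript near its 3′ end.

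The libraries held between 3846016 and 6047247 gene counts, of which mitochondrial genes took 33.61% to 46.19%. Ucp1, the uncoupling protein that defines brown adipocytes, had at least 7090 counts in every library, and the hepatocyte marker Ttr had 0 counts in all 35. The 4 hepatocyte markers (Alb, Apoa1, Ttr and Serpina1c) summed to at most 3.08 CPM (counts scaled so that every library has the same nominal total) in any library. Skeletal muscle markers summed to between 2.96 and 1073 CPM and varied within every group, and the source of these transcripts was not tested. The libraries that correlated least with the rest of their group were cold 2 days replicate 1 and cold 3 days replicate 5, with median correlations of 0.9403 and 0.9422. In whole tissue, fewer cells of a type and less RNA per cell cannot be told apart.

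Ketone bodies are made mainly by the liver from fatty acids and are carried in blood as β-hydroxybutyrate and acetoacetate. In a tissue that burns them, β-hydroxybutyrate dehydrogenase (Bdh1) oxidizes β-hydroxybutyrate to acetoacetate in mitochondria, succinyl-CoA:3-oxoacid CoA transferase (Oxct1) activates acetoacetate with coenzyme A, and the mitochondrial thiolase Acat1 splits the product into acetyl-CoA for the citric acid cycle. MCTs carry lactate, pyruvate and ketone bodies across the plasma membrane together with protons. MCT1 (Slc16a1) is the widespread form, MCT2 (Slc16a7) has a high affinity for its substrates, MCT4 (Slc16a3) is typical of glycolytic cells that export lactate, and MCT7 (Slc16a6) has been described as a ketone body carrier.

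Promoter sequence from RefSeq (GRCm38.p6) covered 250 bases before to 50 bases after the annotated start of 4 of the 7 genes, Bdh1, Oxct1, Slc16a1 and Slc16a3. The windows of Bdh1, which has annotated starts at a pair of positions, and of Slc16a1 are shown because these members stood above the controls at every duration. All are on the plus strand and read 5′ to 3′, and capitals mark the motif matches. The windows lie at chr16:31422047-31422346 and chr16:31428503-31428802 for Bdh1 and at chr3:104638414-104638713 for Slc16a1.
Bdh1, first start: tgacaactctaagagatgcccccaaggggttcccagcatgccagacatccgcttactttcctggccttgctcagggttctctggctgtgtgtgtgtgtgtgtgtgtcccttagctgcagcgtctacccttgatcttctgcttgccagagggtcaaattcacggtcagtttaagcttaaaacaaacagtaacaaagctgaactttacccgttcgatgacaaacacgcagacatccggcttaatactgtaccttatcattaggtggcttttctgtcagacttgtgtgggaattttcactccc
Bdh1, second start: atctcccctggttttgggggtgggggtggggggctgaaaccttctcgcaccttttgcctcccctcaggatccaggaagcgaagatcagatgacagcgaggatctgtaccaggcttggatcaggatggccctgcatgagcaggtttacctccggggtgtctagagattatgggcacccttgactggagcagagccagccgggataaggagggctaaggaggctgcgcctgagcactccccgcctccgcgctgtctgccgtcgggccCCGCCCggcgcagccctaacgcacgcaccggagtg
Slc16a1: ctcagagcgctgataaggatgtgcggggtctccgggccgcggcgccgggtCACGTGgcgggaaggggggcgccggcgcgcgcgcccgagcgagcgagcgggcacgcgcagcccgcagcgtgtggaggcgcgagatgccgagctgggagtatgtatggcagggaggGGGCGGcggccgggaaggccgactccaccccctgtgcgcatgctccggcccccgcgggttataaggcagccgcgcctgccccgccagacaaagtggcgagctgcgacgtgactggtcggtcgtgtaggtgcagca

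The motifs searched on both strands were the nuclear receptor half-site AGGTCA, the estrogen-related receptor element TCAAGGTCA, which contains that half-site, the cAMP response element TGACGTCA, the E-box CACGTG and the GC box GGGCGG. The first Bdh1 window held none of these letters and the second held 1 GC box, read as CCGCCC on the printed strand. The Slc16a1 window held 1 E-box and 1 GC box. The unprinted Slc16a3 window held 1 GC box and that of Oxct1 held no match. Of 32851 promoters of the same length, 16.3% held the half-site, 0.423% the estrogen-related receptor element, 1.79% the cAMP response element, 7.15% the E-box and 35.7% the GC box. GC content was 48.3% in the first Bdh1 window, 63.7% in the second and 73.7% in the Slc16a1 window.

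Bdh1 (ENSMUSG00000046598, chromosome 16, positions 31422280 to 31458901 of GRCm38, plus strand) was nearly silent at room temperature and was present in every cold mouse. The room temperature libraries held 1, 0, 2, 0 and 1 counts, a level of 0.162 ± 0.179 CPM (SD, n = 5). After 6 hours of cold the 5 mice held 19, 17, 53, 29 and 47 counts, or 7.26 ± 3.15 CPM (SD, n = 5). The lowest cold mouse thus had 17 counts against a highest control of 2, and the groups did not overlap. After 1 day the mice had 18.9, 26.5, 11.8, 9.97 and 34.7 CPM, with a mean of 20.4 ± 10.3 CPM (SD, n = 5). After 2 days they had 43.0, 62.6, 70.8, 20.7 and 44.1 CPM, with a mean of 48.3 ± 19.5 CPM (SD, n = 5), which was the highest mean of the course. The fourth mouse of that group was below the range of the other 4 and inside the range of the 1 day group.

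The Bdh1 level stayed high to the end. At 3 days the 5 mice had 34.8, 27.6, 39.7, 65.3 and 34.7 CPM and at 4 days 21.9, 42.4, 53.4, 48.3 and 47.0 CPM. The means were 40.4 ± 14.5 CPM at 3 days and 42.6 ± 12.2 CPM at 4 days (SD, n = 5 each). At 5 days the values were 23.2, 27.1, 28.5, 23.7 and 28.7 CPM, a mean of 26.2 ± 2.63 CPM (SD, n = 5). The 5 day mice lay close together, with a coefficient of variation of 10.0%, whereas the other cold groups ranged from 28.7% at 4 days to 50.6% at 1 day. In descending order of mean the groups were 2, 4, 3, 5 and 1 days, 6 hours and room temperature, and only the last pair of neighbours in that order did not overlap in range. The 5 day mice were nevertheless all above the 6 hour mice, by 1.85 on the log2 scale, a 3.61-fold difference.

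Because the controls held 4 Bdh1 counts in total, fold changes of this gene are imprecise. Pooled over mice and scaled to depth, the ratio of cold to control was 49.1 at 6 hours, with an exact (Clopper-Pearson) 95% interval of 18.8 to 182. It was 329 at 2 days, with an interval of 128 to 1211, and 174 at 5 days, with an interval of 67.6 to 640. Set against a level of 3 counts per control library, equal to 0.570 CPM, the 6 hour mean was 12.7 times, the 2 day mean 84.6 times and the 5 day mean 46.0 times that level. These intervals cover counting error only. The fitted log2 fold changes were 5.35, 6.85, 8.10, 7.86, 7.93 and 7.22 in order of duration. Leaving out control replicate 3, which held 2 of the 4 counts, moved that of 6 hours to 5.95 and that of 2 days to 8.70. An antisense gene, Gm15743, shares 533 exonic bases with Bdh1 and had at most 2 counts in any library.

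**Figure D1:**
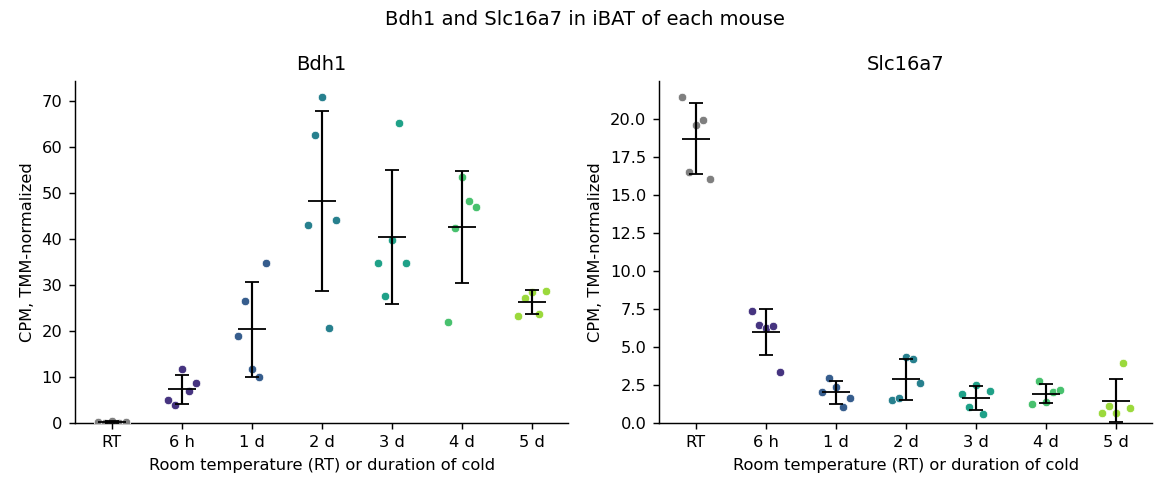
Level of Bdh1 (left) and Slc16a7 (right) in CPM, normalized by the trimmed mean of M values (TMM), against room temperature (RT) or duration of cold. Points are mice, horizontal bars means and error bars SD (n = 5 each). Bdh1 is near 0 in all controls and highest on average at 2 days (48.3 CPM), and Slc16a7 falls from 18.7 CPM in controls to 5.95 CPM at 6 hours and stays lower.

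Slc16a7 (ENSMUSG00000020102, chromosome 10, positions 125219270 to 125389465, minus strand) took the opposite course. The room temperature mice held 111, 85, 90, 121 and 88 counts, or 18.7 ± 2.34 CPM (SD, n = 5). At 6 hours they held 28, 28, 28, 27 and 18 counts, or 5.95 ± 1.52 CPM (SD, n = 5), so that the highest cold count of 28 was below the lowest control count of 85. From 1 day on no mouse had more than 24 counts. The group means were 1.99, 2.85, 1.60, 1.91 and 1.46 CPM at 1, 2, 3, 4 and 5 days. These late groups overlapped one another in range, so that no order among them can be read.

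The fitted log2 fold changes of Slc16a7 against room temperature were −1.69, −3.19, −2.73, −3.52, −3.27 and −3.63 from 6 hours to 5 days. Between 6 hours and 5 days it was lower by a further 1.95 on the log2 scale (−1.95), with 4 of the 5 late mice below all 6 hour mice. The exception, cold 5 days replicate 4, held 20 counts where the others held 3, 5, 3 and 5. Without that mouse the 5 day log2 fold change was −4.42 against room temperature and −2.74 against 6 hours. The antisense gene Gm47862 shares 179 exonic bases with Slc16a7 and had at most 1 count.

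A list of 5 transcripts taken as white-like adipocyte markers (Lep, Retn, Car3, Cfd and Nnat), all detected in every library, had a lower sum in the cold. The study uses Car3 and Nnat as markers of differentiating brown adipocytes, so the sum cannot be read as an amount of white-like cells. The sum was 7911 to 9309 CPM at room temperature, 4069 to 6630 CPM at 6 hours, 1120 to 2053 CPM at 1 day and 960 to 2218 CPM at 5 days. Car3 and Cfd made up most of it, with medians of 6250 and 2104 CPM at room temperature and 685 and 293 CPM at 5 days. The other 3 did not share one course. The median of Lep was 10.7 CPM in controls, 2.22 CPM at 6 hours and 0.996 CPM at 5 days. That of Nnat was 40.0 CPM in controls, 4.03 CPM at 2 days and 39.9 CPM at 5 days. Retn overlapped the controls in every cold group. At 5 days the mouse with the highest Slc16a7 was not the one with the highest sum, since replicate 4 had a sum of 1006 CPM and replicate 2 one of 2218 CPM. The part of the cells that hold these transcripts in the course of Slc16a7 was not tested.

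Oxct1 and Acat1, which act after Bdh1 in ketone body oxidation, were well expressed at room temperature, and neither was called at any duration in the TMM-scaled edgeR fits, though other fits named below called one or the other at some times. Oxct1 (ENSMUSG00000022186, chromosome 15, 4026383 to 4155344, plus strand) ranged from 286 to 410 CPM in the controls, with a mean of 332 ± 50.7 CPM (SD, n = 5). Its cold means were 287 ± 21.3 CPM at 6 hours, 284 ± 33.6 CPM at 1 day, 385 ± 63.2 CPM at 3 days and 310 ± 43.2 CPM at 5 days (SD, n = 5 each). All 6 cold groups overlapped the controls in range. The log2 fold changes were −0.23 ± 0.11 at 6 hours, −0.23 ± 0.12 at 1 day, 0.00 ± 0.13 at 2 days, 0.22 ± 0.13 at 3 days, 0.06 ± 0.12 at 4 days and −0.10 ± 0.12 at 5 days (± SE). The lowest adjusted p was 0.0890, at 6 hours, by edgeR's quasi-likelihood test with Benjamini-Hochberg adjustment. When libraries were scaled by total counts alone, Oxct1 was called lower at 6 hours, 1 day and 5 days, at −0.42, −0.45 and −0.34. That scaling moved the median log2 fold change of all genes by −0.19, −0.22 and −0.23 in those comparisons. BC037032, which overlaps Oxct1 in 467 exonic bases on the opposite strand, had at most 36 counts.

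Acat1 (ENSMUSG00000032047, chromosome 9, 53580522 to 53610382, minus strand) ranged from 388 to 465 CPM in the controls, with a mean of 412 ± 32.4 CPM (SD, n = 5). The lowest mean was 347 ± 81.8 CPM at 1 day and the highest 490 ± 60.1 CPM at 5 days (SD, n = 5 each), and both groups overlapped the controls. Spread among mice was widest at 2 days, from 285 CPM in replicate 1 to 572 CPM in replicate 4. The log2 fold changes were 0.15, −0.25, 0.09, 0.03, 0.12 and 0.24 in order of duration, with SE between 0.09 and 0.15. At 5 days the adjusted p was 0.0744 by edgeR, with 3 of 5 mice above all controls. DESeq2 called that difference (log2 fold change 0.26, adjusted p = 0.0370), as did edgeR without cold 5 days replicate 1 (0.31, adjusted p = 0.0235). Scaling by total counts alone called Acat1 lower at 1 day (−0.48) and turned the sign at 6 hours and at 2, 3 and 4 days.

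**Figure D2:**
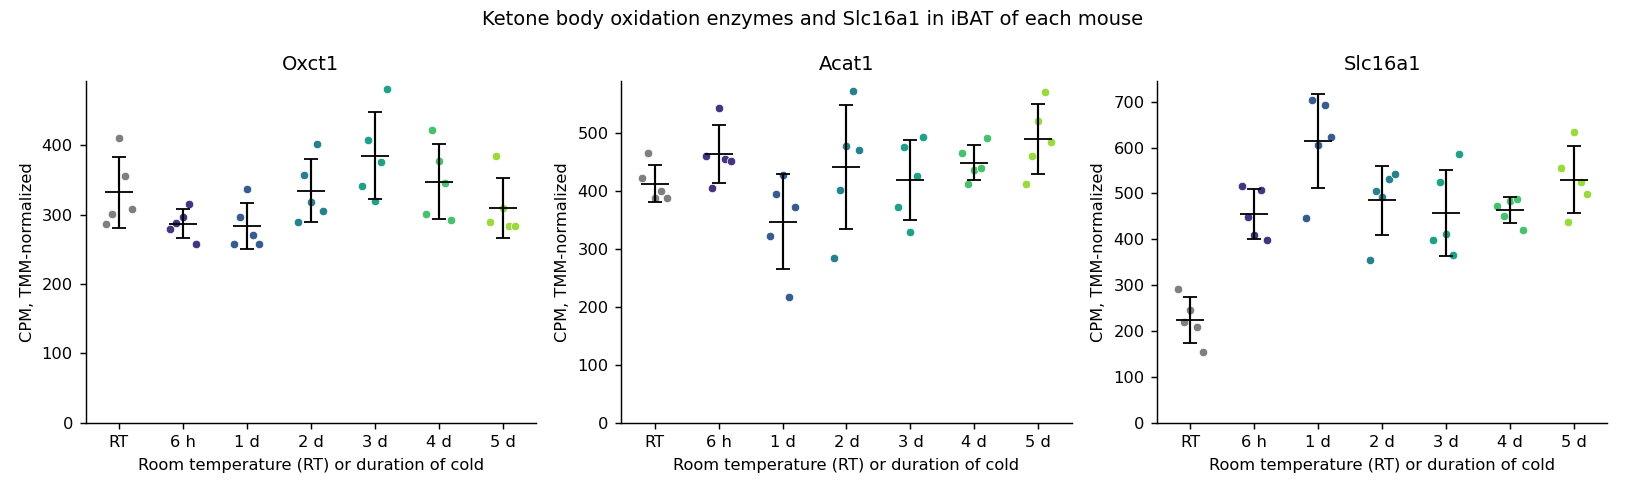
Level of Oxct1, Acat1 and Slc16a1 in TMM-normalized CPM (linear axes from 0) against room temperature (RT) or duration of cold. Points are mice, horizontal bars means and error bars SD (n = 5 each). Oxct1 and Acat1 overlap the controls in every cold group, whereas every cold mouse is above the highest control for Slc16a1 (291 CPM).

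Slc16a1, the widespread lactate, pyruvate and ketone body transporter (ENSMUSG00000032902, chromosome 3, 104638668 to 104658462, plus strand), was about doubled within 6 hours and remained so. The control mice had 291, 219, 247, 208 and 155 CPM, a mean of 224 ± 50.3 CPM (SD, n = 5). At 6 hours the mice had 516, 448, 410, 508 and 398 CPM and at 1 day 447, 704, 606, 692 and 623 CPM. No cold mouse overlapped the controls at either time. At 2 days the values were 355, 505, 492, 531 and 542 CPM and at 3 days 398, 526, 411, 365 and 587 CPM. At 4 days they were 472, 452, 484, 489 and 420 CPM and at 5 days 556, 438, 634, 525 and 499 CPM. The lowest of all 30 cold mice, cold 2 days replicate 1 at 355 CPM, was above the highest control at 291 CPM.

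Slc16a1 was called higher at every duration by edgeR's quasi-likelihood test. Its log2 fold change was 1.01 ± 0.14 (SE) at 6 hours, with an adjusted p of 1.3e-05. It was largest at 1 day, at 1.46 ± 0.15, with an adjusted p of 2.2e-06 by edgeR. At 2, 3 and 4 days it was 1.11, 1.04 and 1.05, and at 5 days 1.24 ± 0.14 with an adjusted p of 2.1e-06 by edgeR. The calls against room temperature held in each of the 8 other fits and with each mouse left out in turn. Between 6 hours and 5 days the log2 difference was 0.23 ± 0.11 and was not called by edgeR (adjusted p = 0.108), although it passed without cold 5 days replicate 2 (0.30, adjusted p = 0.0475). The differences between cold groups that neighbour each other in mean were within the range of the mice.

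Endothelial cells also express MCT1, and the sum of 5 of their markers (Pecam1, Cdh5, Kdr, Cldn5 and Tie1) was higher early in the cold. Each was detected in every library, from 2 to 23 counts of Cldn5 to 485 to 1957 of Kdr, and none was read singly by group. The sum was 231 to 283 CPM at room temperature, 394 to 494 CPM at 6 hours and 459 to 547 CPM at 1 day. It was 317 to 468 CPM at 2 days, again above all controls, and 264 to 404, 253 to 381 and 211 to 350 CPM at 3, 4 and 5 days, when the ranges overlapped the controls. The part of endothelial RNA in the Slc16a1 level was not tested at any duration.

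Of the 3 members that passed the count filter and whose p-value was read (Oxct1, Acat1 and Slc16a1), 1 was called higher and 0 lower at each duration against room temperature. The background shares of all genes tested that were called were 21.5% higher and 21.0% lower at 6 hours, 18.9% higher and 17.8% lower at 1 day, and 16.4% higher and 14.7% lower at 2 days. They were 18.3% higher and 15.5% lower at 3 days, 19.4% higher and 18.6% lower at 4 days, and 20.2% higher and 18.6% lower at 5 days. Between 6 hours and 5 days 0 of the 3 were called by edgeR or by DESeq2, and 1 had an unadjusted p under 0.05, beside 19.0% of all genes called higher and 16.9% lower. The 6 comparisons against room temperature all use 1 set of 5 control mice, so they are not independent.

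Slc16a3 and Slc16a6 were at the edge of detection and did not pass the count filter in any comparison. Slc16a3, the lactate-exporting MCT4 (ENSMUSG00000025161, chromosome 11, 120948480 to 120960868, plus strand), held 2, 2, 2, 1 and 8 counts at room temperature and 0, 4, 6, 3 and 4 at 6 hours. It held 24, 11, 2, 6 and 3 counts at 2 days, 11, 0, 30, 14 and 4 at 3 days and 18, 4, 19, 4 and 9 at 4 days. Every cold group overlapped the controls, and within the 3 day group the mice spanned 0 to 5.34 CPM. At 5 days the counts were 7, 9, 0, 6 and 3.

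Without the filter, edgeR gave Slc16a3 a log2 fold change of 2.03 ± 0.57 (SE) at 3 days, with an adjusted p of 0.00399, and of 1.77 ± 0.58 at 4 days, with an adjusted p of 0.0168. DESeq2 gave adjusted p-values of 0.0453 at 3 days and 0.0370 at 4 days. With all 7 groups in one edgeR fit the adjusted p was 0.0296 at 3 days and 0.0611 at 4 days. Slc16a3 passed the count filter there, though in no pairwise comparison, and its highest counts, at 2, 3 and 4 days, entered that filter. The p-values of this fit at those times are therefore not independent of the filter. At 6 hours, 1 day, 2 days and 5 days the adjusted p was above 0.05 in these 3 fits. The nearest was 0.0563 at 2 days by edgeR without the filter. At 3 days the log2 fold change was 2.06 ± 0.81 (SE) by DESeq2 and 2.02 ± 0.73 with all groups in one fit. At 4 days these were 1.79 ± 0.69 and 1.73 ± 0.73. The lower adjusted p-values without the filter thus came with a smaller SE, not a larger difference. They are not to be read as stronger evidence.

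Macrophages express MCT4, and the sum of 7 macrophage markers (Adgre1, Cd68, Csf1r, Lyz2, Cd14, Lgals3 and Gpnmb, none at 0 in any library) also varied among mice. The sum was 45.2 to 115 CPM at room temperature, 49.6 to 470 CPM at 2 days, 86.4 to 498 CPM at 3 days and 54.5 to 350 CPM at 4 days. The highest Slc16a3 value at 2 days, 3.62 CPM in replicate 1, was in the mouse with a marker sum of 470 CPM. At 3 days the highest, 5.34 CPM in replicate 3, went with a sum of 423 CPM, and the mouse with 0 counts of Slc16a3 had the lowest sum, 86.4 CPM. Among controls the highest of both was in replicate 5, with 1.45 CPM of Slc16a3 and a sum of 115 CPM. Other mice departed from this. At 4 days replicate 2 had the highest sum of its group, 350 CPM, and a Slc16a3 level of 0.689 CPM. At 5 days replicate 5 had the highest sum, 350 CPM, with 3 counts of Slc16a3, whereas replicate 2, with a sum of 127 CPM, had the most counts, 9. At 3 days the highest sum, 498 CPM in replicate 1, went with 11 counts. The part of macrophage RNA in the Slc16a3 level was not tested.

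Slc16a6 (ENSMUSG00000041920, chromosome 11, 109450855 to 109473598, minus strand) held 7, 7, 4, 6 and 20 counts at room temperature and between 0 and 25 in the cold mice. Its group means lay between 0.871 CPM at 6 hours and 1.64 CPM at room temperature, and all groups overlapped. No adjusted p was under 0.05 in the edgeR fit without a filter or by DESeq2, the log2 fold changes in the former being between −0.89 at 6 hours and −0.08 at 2 days. Its exons share 1052 bases with Amz2 on the opposite strand, which had 69 to 173 counts, and the strand setting of the counting was not given in the sources used here. How reads of the overlap were counted is therefore unknown, and the Slc16a6 values are uncertain.

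**Figure D3:**
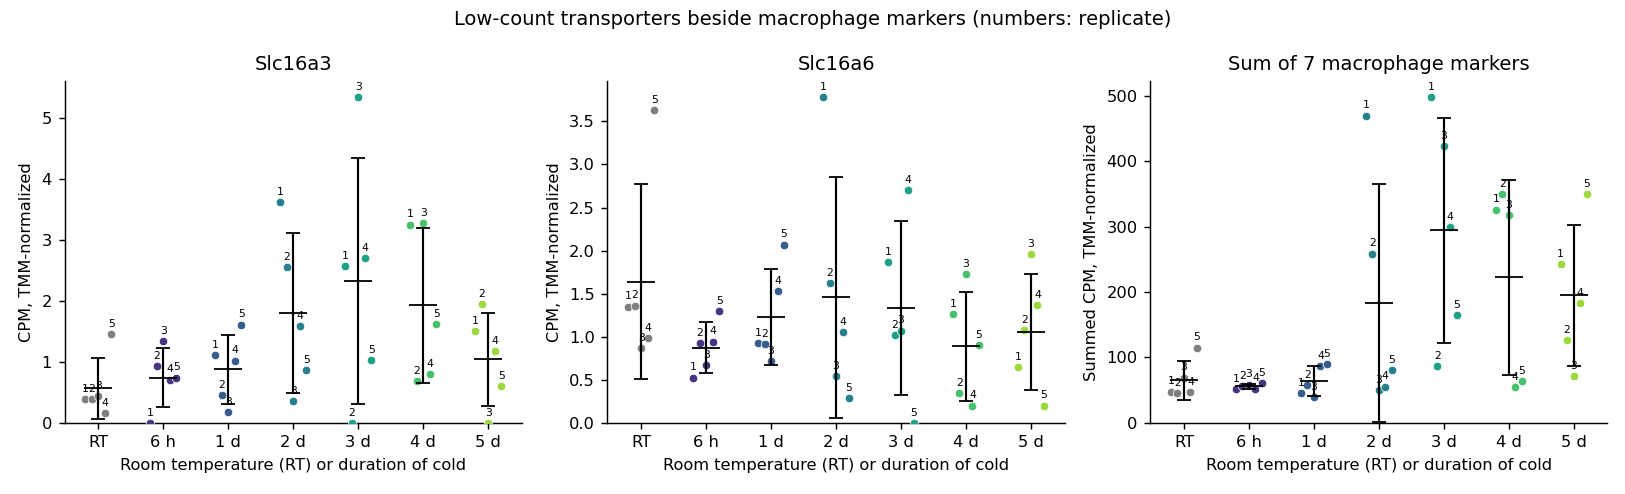
Slc16a3 (left) and Slc16a6 (middle) in TMM-normalized CPM and the summed CPM of 7 macrophage markers (right) against room temperature (RT) or duration of cold. Points are mice numbered by replicate, horizontal bars means and error bars SD (n = 5 each). Cold 2 days replicate 1 is the highest of its group in all 3 panels, with 3.62 CPM of Slc16a3, 3.78 CPM of Slc16a6 and a marker sum of 470 CPM.

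The surrounding pathway was read from a list chosen with earlier results of these data known, so the shares called are a description. The list held 33 genes in 6 roles, of which 32 had a row in the table. Of these, 16 passed the count filter in at least 1 comparison. The other 16 passed in none, and 15 of them had at most 13 counts in every library. Of the pathway genes tested at 6 hours, 5 of 16 were called higher and 6 lower, beside 21.5% and 21.0% of all genes. At 1 day 6 of 15 were higher and 4 lower (all genes 18.9% and 17.8%), and at 2 days 7 of 15 and 4 (16.4% and 14.7%). At 3 days 8 of 16 were higher and 4 lower (all genes 18.3% and 15.5%), at 4 days 7 of 16 and 4 (19.4% and 18.6%), and at 5 days 7 of 15 and 4 (20.2% and 18.6%). The median log2 fold change of the list was −0.09 at 6 hours, 0.19, 0.38, 0.39 and 0.38 at 1 to 4 days and 0.22 at 5 days, against −0.027, −0.018, −0.017, −0.007, −0.021 and −0.017 for all genes tested.

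MCT1 and MCT4 reach the plasma membrane with the help of basigin (Bsg), and Bsg was called higher at every duration. The control mice had 115, 119, 114, 97.9 and 108 CPM, the 6 hour mice 147, 165, 171, 152 and 144 CPM and the 5 day mice 272, 291, 352, 371 and 264 CPM. No cold mouse overlapped the controls. The log2 fold change of Bsg was 0.47 ± 0.09 (SE) at 6 hours (edgeR adjusted p = 4.5e-04) and 1.48 ± 0.11 at 5 days (edgeR adjusted p = 2.6e-08). Between 6 hours and 5 days Bsg was higher by 1.01 on the log2 scale (edgeR adjusted p = 5.0e-07). Neuroplastin (Nptn), a related membrane protein, was called higher from 6 hours to 3 days, at 0.45, 0.61, 0.51 and 0.40. Nptn was not called at 6 hours, 2 days and 3 days when scaled by total counts alone, and DESeq2 called it at 4 days as well (0.25, adjusted p = 0.0427). Embigin (Emb), the third chaperone of the list, had 3 to 28 counts and was not called in the 4 comparisons in which it was tested.

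The mitochondrial pyruvate carrier, a complex of Mpc1 and Mpc2, was higher late in the cold. Mpc2 was called higher at every duration, from 0.57 ± 0.13 at 6 hours (edgeR adjusted p = 0.00231) to 1.62 ± 0.17 at 5 days (edgeR adjusted p = 7.2e-07). The 5 day mice had 754, 899, 1115, 1360 and 1023 CPM of Mpc2 against 447, 292, 396, 280 and 258 CPM in controls, and all were above the controls. Mpc1 was called higher from 2 days on, at 0.76, 0.54, 0.78 and 1.08. At 6 hours its log2 fold change was −0.22 and was not called by edgeR (adjusted p = 0.338).

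Lactate dehydrogenases interconvert pyruvate and lactate. Ldha, the form of glycolytic tissues, was not called at 6 hours (log2 fold change −0.05) and was called higher at all later times, from 0.67 at 2 days to 1.27 ± 0.17 at 5 days (edgeR adjusted p = 1.3e-05). Ldhb, the form of oxidative tissues, was called higher at all 6 durations, between 0.39 at 3 days and 0.72 at 1 day. Scaled by total counts alone, Ldhb was called at 1 day and 4 days only, and Ldha at 2 days was not called. Ldhd, which oxidizes D-lactate, was called lower from 2 days on, with log2 fold changes of −0.70 at 2 days, −1.01 at 4 days and −0.70 at 5 days.

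The cell surface receptors for lactate (Hcar1) and for β-hydroxybutyrate (Hcar2), both coupled to inhibition of lipolysis in adipocytes, fell at every duration. Hcar1 had 143, 217, 176, 206 and 140 counts in controls and 6, 5, 5, 14 and 7 at 6 hours, a log2 fold change of −4.32 ± 0.24 (SE, edgeR adjusted p = 4.9e-10). The groups were far apart and did not overlap. At 5 days Hcar1 had 26, 25, 28, 22 and 16 counts, still −2.77 ± 0.19 against controls (edgeR adjusted p = 5.4e-09). Its fitted level was 1.55 higher on the log2 scale than at 6 hours (edgeR adjusted p = 0.00146). Of the 5 day mice, 4 of 5 were above all 6 hour mice. Hcar2 had 18, 28, 14, 27 and 19 counts in controls and no more than 8 in any cold mouse. Its log2 fold changes were between −3.65 at 3 days and −2.58 at 4 days (edgeR adjusted p = 2.3e-05 and 1.0e-04). Car3 and Cfd, given beside Slc16a7, were lower over the same times, and the part of the cells that hold them in the fall of the receptors was not tested.

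**Figure D4:**
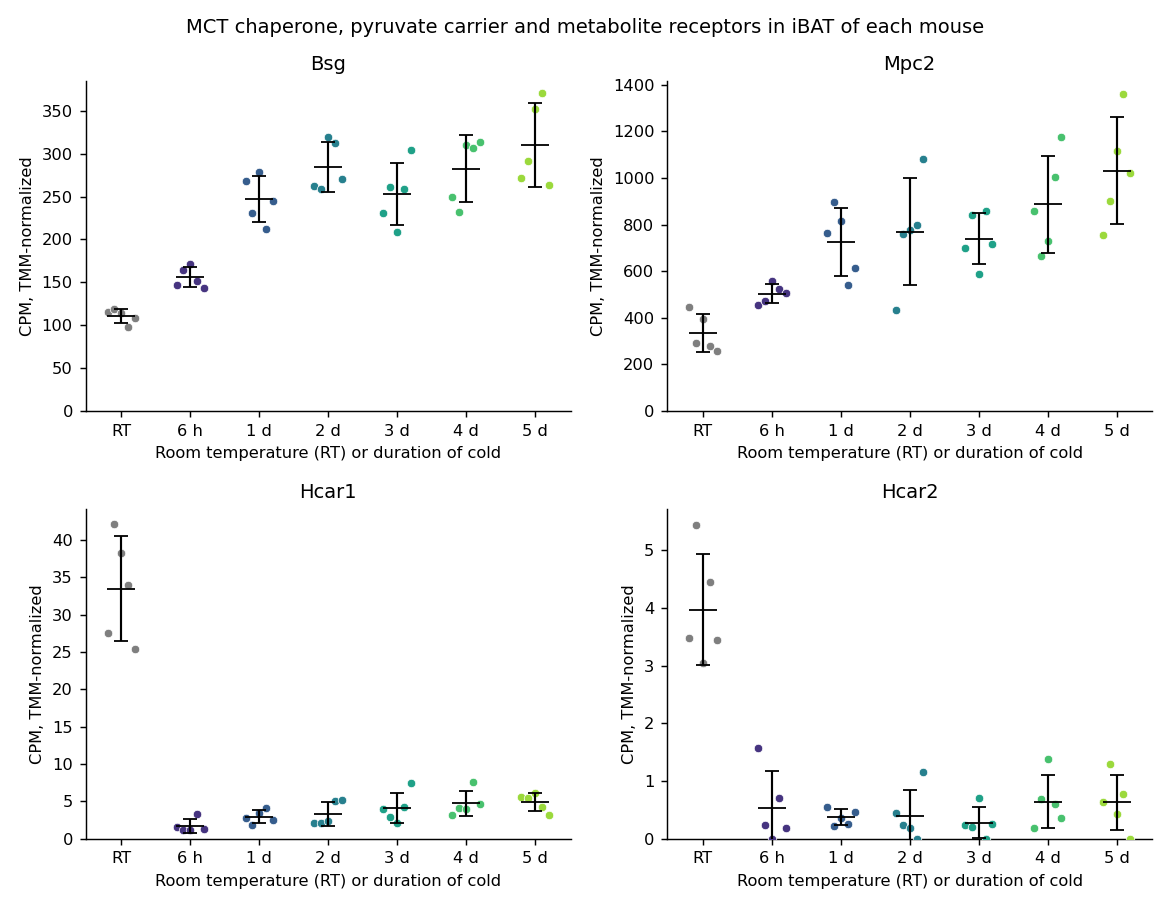
Level of Bsg, Mpc2, Hcar1 and Hcar2 in TMM-normalized CPM (linear axes from 0) against room temperature (RT) or duration of cold. Points are mice, horizontal bars means and error bars SD (n = 5 each). Every cold mouse is above the controls for Bsg and below them for Hcar1 and Hcar2, while for Mpc2 cold 2 days replicate 1 (434 CPM) lies inside the control range.

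Some ketone body carbon is used in the cytosol for lipid synthesis rather than burned. Aacs, which activates acetoacetate for that use, fell at 6 hours by 1.83 on the log2 scale (edgeR adjusted p = 4.6e-07) and was called higher from 3 days on, at 0.64, 0.76 and 1.02. Aacs was higher at 5 days than at 6 hours by 2.85 ± 0.20 (edgeR adjusted p = 1.7e-09). All 5 of the 5 day mice were above every 6 hour mouse. The 3 day call of Aacs (edgeR adjusted p = 0.0492) was lost in 8 of 10 fits with a mouse left out.

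Hmgcs1 and Acat2, other cytosolic enzymes of the list, took courses of their own. Hmgcs1, the cytosolic HMG-CoA synthase of cholesterol synthesis, was not called at 6 hours (0.09) and was called higher at every later time, at 1.23, 0.95, 0.63, 0.85 and 0.88. The cytosolic thiolase Acat2 was called lower at 6 hours (−0.68) and 1 day (−0.39). Between 6 hours and 5 days Acat2 was higher by 0.90 (edgeR adjusted p = 2.7e-05).

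Of the 9 other SLC16 genes in the list, 1 passed the filter. Slc16a10, a carrier of aromatic amino acids, was called higher at 6 hours only (0.73 ± 0.17, edgeR adjusted p = 0.00181). It was lower by 0.81 at 5 days than at 6 hours on the log2 scale (−0.81, edgeR adjusted p = 0.00139). Of the regulators, Ppara, a nuclear receptor that controls fatty acid oxidation and ketogenesis, was called lower at every duration. Its log2 fold change was −1.19 ± 0.12 at 6 hours (edgeR adjusted p = 5.2e-07), −0.99 at 3 days and −0.35 at 5 days, and the last call was lost in 6 of 10 fits with a mouse left out. Sirt3, a mitochondrial deacetylase, had a log2 fold change of −0.29 at 6 hours with an edgeR adjusted p of 0.0491, a call lost in 6 of the 8 other fits.

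**Figure D5:**
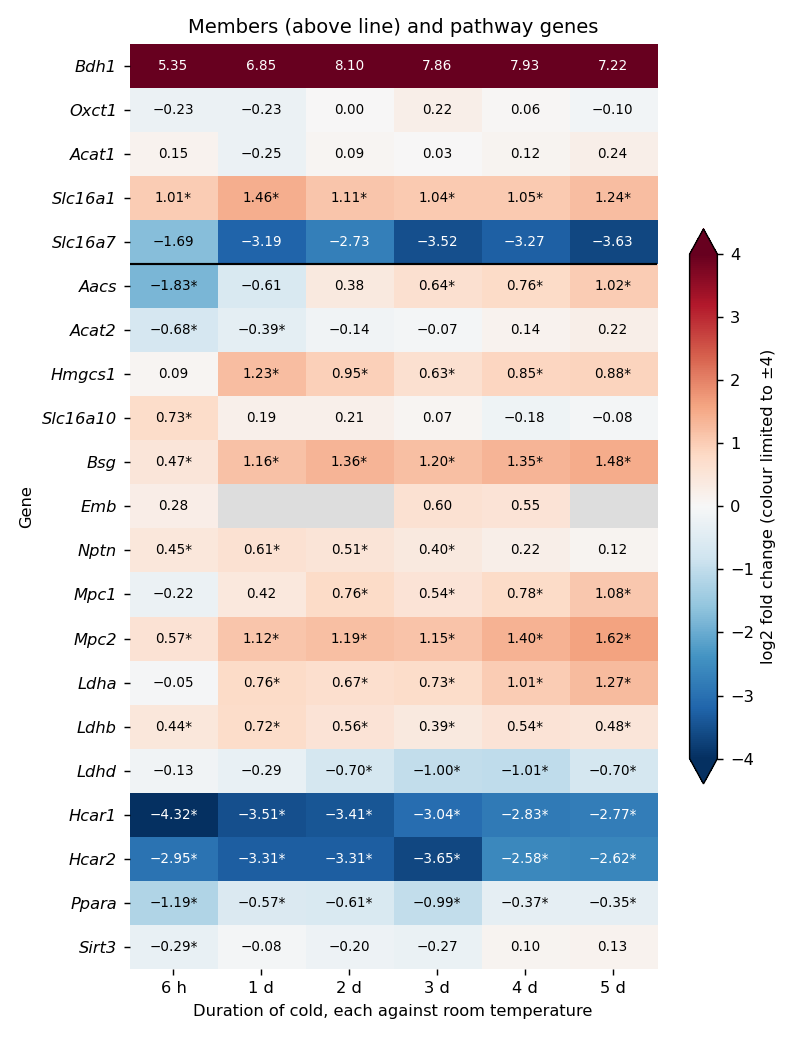
Log2 fold change against room temperature (numbers and colour) of the 5 members with a fit, above the line, and of the 16 pathway genes tested, below it, by duration of cold. Asterisks mark genes called at an adjusted p under 0.05 by edgeR, grey cells were not tested, and Bdh1 and Slc16a7 carry no mark because their course chose the group. Slc16a1, Bsg and Mpc2 are higher and Hcar1 and Hcar2 lower in all 6 columns.

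The genes most like each member in their course over the 35 mice were searched among 12211 genes, by Pearson's r of log2 CPM. For Bdh1 they were Rexo2, a mitochondrial RNA exonuclease (r = 0.96), 4931406C07Rik (0.942), Elovl3, a fatty acid elongase of brown fat (0.933), Ctsz (0.933) and Nme1 (0.927). For Slc16a7 they were Enpp2, which makes lysophosphatidic acid (0.876), Impdh1 (0.864), Kmt2e (0.856), 4931406P16Rik (0.854) and Lctl (0.847). The likeness follows the differences between groups, and the mice share tissue, housing and library preparation. By Spearman's rho, 1 of the top 5 for Bdh1 and 2 of the top 5 for Slc16a7 were shared with these.

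For Slc16a1 the closest genes were Acot8 (0.914), Ubqln1 (0.911) and Cib2 (0.903), and for Acat1 the respiratory chain subunits Ndufa1 (0.895) and Ndufb1-ps (0.884) and the electron transfer flavoprotein subunit Etfa (0.848). For both members 0 of these 3 were among the top 3 by Spearman's rho, while for Oxct1, Slc16a3 and Slc16a6 2 of 3 were. Oxct1 had no gene with an r above 0.72, the highest being Ppm1m, followed by Cbs (0.68) and Id2 (0.653). Slc16a3 was closest to Plek (0.74), Cyba (0.729) and Ccl7 (0.716). For Slc16a6 the highest were A130010J15Rik (0.638), Atp2b1 (0.616) and Ptpro (0.608). The counts of Slc16a3 and of Slc16a6 were too low for these values to be a finding.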

How the data were processed

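The 7 genes and all lists of genes and markers were chosen with earlier results of these data known. Per the labels and the study's methods, the authors aligned the QuantSeq reads to the mouse genome GRCm38 with STAR 2.6.1d and counted reads per gene with HTSeq 0.11.2. The deposited table holds these raw read counts for 55421 genes in 35 libraries, of which 267 rows have no symbol. No pair of libraries was identical. After TMM scaling, 1 read was worth at most 0.288 CPM.

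Each duration was compared with room temperature, and 5 days with 6 hours, one model for each comparison, by edgeR 4.0.16 under R 4.3.3 (TMM scaling, filterByExpr, quasi-likelihood test, two-sided, Benjamini-Hochberg adjustment over all genes tested, called under 0.05). Members and pathway genes passing the filter were named. The genes most like each member were the top 5 for Bdh1 and Slc16a7 and the top 3 otherwise, among genes with 10 counts in at least 5 libraries, with a prior count of 2. Group errors are SD over mice and fitted errors SE. Motif matches and intervals were computed in Python 3.11.15. The fit was tested on simulated data. Other fits used DESeq2 1.42.0, other scalings, other filters, all groups together, a replicate block, or left out each mouse in turn. Gene positions are from GENCODE on GRCm38. Some genes of the pathway list are not reported here.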

Additional observations from a re-analysis of the deposited data

Results flagged for a closer look

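Over 35 combinations of group and member, leaving out Bdh1 and Slc16a7, 4 held a mouse set apart from the other 4 by Dixon's test, which flags about 1 in 20 by chance. Oxct1 in cold 5 days replicate 2 was the highest of its group at 385 CPM, the next mouse having 309 CPM. Slc16a1 in cold 2 days replicate 1 was the lowest at 355 CPM, against 492 CPM in the next. That library correlated least with its group and had the highest macrophage marker sum of the group, 470 CPM. Slc16a3 (1.45 CPM) and Slc16a6 (3.63 CPM) were both highest among controls in room temperature replicate 5, which also had the highest macrophage marker sum of the controls, 115 CPM. No cause was tested for any of these.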

How the results depend on the processing

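Depth limits Slc16a3 and Slc16a6, and the controls of Bdh1, where 1 read is worth up to 0.288 CPM. The number of members called against room temperature, 1 at each duration, became 2 at 6 hours, 3 at 1 day and 2 at 5 days with scaling by total counts alone. It became 2 with DESeq2 at 3, 4 and 5 days (Slc16a3 at 3 and 4 days, Acat1 at 5 days), 2 without a filter at 3 and 4 days, and 2 at 3 days with all groups in one fit. With a mouse left out it ranged from 1 to 2 at 5 days, and from 0 to 1 between 6 hours and 5 days. The replicate numbers did not pair the mice (correlations of same-numbered deviations −0.187 to 0.145), and with the replicate block the count of members called was 1 at each duration and 0 between 6 hours and 5 days, and the log2 fold change of Slc16a1 at 6 hours was 1.03. The block lost the pathway calls of Sirt3 at 6 hours, Ldha at 2 days and Aacs and Ldhb at 3 days and added that of Aacs at 1 day. The call of Aacs at 4 days was lost with all groups in one fit (adjusted p = 0.0672).

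Scaling by total counts alone moved the median of all genes by −0.13 to −0.23 against room temperature. It gave 1342 genes higher and 3399 lower at 6 hours (2280 and 2225 with TMM), 1140 and 3218 at 1 day (2014 and 1901), 931 and 2776 at 2 days (1748 and 1565) and 1194 and 3347 at 5 days (2167 and 1998). It also gave 1339 and 2430 at 3 days (1982 and 1674) and 1440 and 2670 at 4 days (2140 and 2056). Signs that turned under it were those of Acat1 at 6 hours (−0.04) and 2, 3 and 4 days (−0.16, −0.12, −0.02), Oxct1 at 2 days (−0.23) and 4 days (−0.06), Hmgcs1 at 6 hours (−0.10), Slc16a10 at 1 and 3 days (−0.04, −0.06), Acat2 at 4 and 5 days (−0.00, −0.03), Nptn at 5 days (−0.12), Sirt3 at 4 and 5 days (−0.06, −0.11) and Ldhb between 6 hours and 5 days (−0.01). Oxct1 at 2 days was −0.01 without mitochondrial genes and Gm42418. With a mouse left out, signs turned for Oxct1 at 2 days (−0.07 to 0.08), Acat1 at 2 days (−0.02 to 0.20) and 3 days (−0.03 to 0.11), Hmgcs1 at 6 hours (−0.01 to 0.15), Ldha at 6 hours (−0.12 to 0.06), Slc16a10 at 3 days (−0.12 to 0.18) and Ldhb between 6 hours and 5 days (−0.00 to 0.11). None of these was called. Ldha at 2 days and Ldhb at 3 days lost their calls in 5 and 6 of 10 such fits. The cause was not tested.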
